A study of Mus musculus with 2 samples.

Results

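Mbnl2 tags were followed over 6 long noncoding RNAs: Malat1 and Neat1, which are retained in the nucleus, Meg3, Rian and Mirg, which are made from the imprinted Dlk1-Dio3 region, and H19, which is made from the imprinted H19-Igf2 region. The members were chosen by name, with earlier results of these data known, and all 6 were found among the 37310 genes of the mm9 GENCODE annotation. A tag is 1 row of the deposited table, a stretch of 18 to 33 nt of RNA with its position, its strand and the number of sequencing reads collapsed into it.

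The tags come from HITS-CLIP, in which UV light joins a protein to the RNA it touches, RNase trims the RNA, an antibody pulls the protein down and the short RNA pieces are sequenced. The study asked where Mbnl2 binds in muscle that has or lacks its paralogue Mbnl1. Quadriceps of 3 WT and 3 *Mbnl1* KO mice (Mbnl1-/-), all 15 to 16 weeks old and labelled C57BL/6, was powdered in liquid nitrogen before crosslinking, and both groups were treated with the same Mbnl2 antibody and with RNase A at 38.6 and 0.0386 U/ml. The *Mbnl1* KO mice lack Mbnl1 in every tissue, and both groups keep an intact Mbnl2 gene. The methods name a mixed background for the compound knockouts of the study, and whether it also applies to these mice is not given in the sources used here.

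The mice of each genotype were merged into 1 table by the authors, so there is no spread between mice and no test of the genotypes. There were 343554 tags from 5176203 reads in WT, and in *Mbnl1* KO 476543 tags from 50329234 reads. Tags were counted when they overlapped a gene on its strand and were scaled to 1000000 tags of their table, which gives scaled tags. The *Mbnl1* KO/WT ratio of these levels is given with an exact 95% Clopper-Pearson interval, written in brackets, which reflects counting error alone and describes a pair of merged libraries. RNA levels were not measured in the same samples, so more Mbnl2 on an RNA and more of that RNA cannot be told apart, nor can more cells of a type and more RNA per cell. Over the body of Mbnl1 there were 100 WT and 452 *Mbnl1* KO tags (ratio 3.26, 2.62 to 4.09), which does not check the deletion, since it removes only a part of the gene.

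Several features of the tables touch every ratio below. Tags whose reference sequence is at least 70% one base, called low-complexity tags here, numbered 148588 of 337354 WT tags (44.0%) on assembled chromosomes and 80234 of the 472915 *Mbnl1* KO tags, and they enter the total that ratios are scaled to. The rows of the WT table run through the chromosomes 3 times and those of the *Mbnl1* KO table run through them 6 times, and within 1 such run, called a pass here, no position is listed more than once. The labels do not say which mouse or library a pass is, so passes are used for ranges and not as replicates. Outside chromosome M and without low-complexity tags, WT pass 3 shared 22831 of its 99313 positions with *Mbnl1* KO pass 1, while the shares were 0.247% to 4.08% for the other pairs of a WT with an *Mbnl1* KO pass. In the 6 RNAs the same pair shared 100 of 215 positions (46.5%), against 2.10% to 17.5% for the others. *Mbnl1* KO passes 4, 5 and 6 shared 24.9% to 50.2% of their positions with each other, against 0.237% to 21.4% for other *Mbnl1* KO pairs. In the 6 RNAs these shares were 43.2% to 77.0% against 2.46% to 39.3%, so tags at 1 position in several passes may not be separate events. Ratios without WT pass 3 and *Mbnl1* KO pass 1 are therefore given beside the results.

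Muscleblind-like proteins bind RNA through zinc fingers that prefer a GC step between pyrimidines, the YGCY motif. They are best known as regulators of alternative splicing in muscle, heart and brain, and are held by expanded CUG or CCUG repeats in myotonic dystrophy. Malat1 is an abundant RNA of nuclear speckles, where splicing factors gather. Neat1 forms the core of paraspeckles, nuclear bodies built around its long isoform. Meg3, Rian and Mirg are transcribed in the same direction along mouse chromosome 12 from the maternal chromosome and host many small nucleolar RNAs and microRNAs, and H19 is a maternally expressed RNA that hosts a microRNA and is abundant in fetal muscle.

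The positions with the most Mbnl2 tags are shown first, since the results on position and motif turn on them. Each site is the 30 bases centred on a position of highest pooled coverage, low-complexity tags left out, at least 100 nt from any higher one and with at least 10 pooled tags over it. At most 8 sites were taken in Malat1, and this limit was reached, with 16 pooled tags over the last one taken. Neat1 had 3 sites and the other 4 RNAs had 0. The names give the position in nt from the annotated start of the RNA, the coordinates are mm9, and the sequence is the sense strand of the reference, 5′ to 3′. Capitals mark the 4 tetramers that make up YGCY, which are TGCT and TGCC, and, with C as the first letter, CGCT and CGCC. They were searched on the sense strand only and may overlap one another.
Malat1 4835 nt, chr19:5797823-5797852 (minus strand): atataagCGCTTGCCtctgtcttctgttct
Malat1 4210 nt, chr19:5798448-5798477 (minus strand): ctaaaatttaaatgTGCTccaatgtacttg
Malat1 5206 nt, chr19:5797452-5797481 (minus strand): ttggagccgagtcccttTGCTgTGCTGCCt
Malat1 5044 nt, chr19:5797614-5797643 (minus strand): cTGCTGCTattagaatgcattgtgacgcga
Malat1 1191 nt, chr19:5801467-5801496 (minus strand): gtagcttaatttTGCTtgatgacaaaagga
Malat1 2920 nt, chr19:5799738-5799767 (minus strand): tgtgaTGCTacagtggggactcttctgaag
Malat1 3942 nt, chr19:5798716-5798745 (minus strand): gagctgttgaatgtttgcagctggcccctc
Malat1 3145 nt, chr19:5799513-5799542 (minus strand): agtgtaggagaaatgattttccttgtgact
Neat1 18123 nt, chr19:5827342-5827371 (minus strand): ttagtagcttTGCTctctcTGCTgtgtttg
Neat1 7758 nt, chr19:5837707-5837736 (minus strand): agtctctggctcatagtgtgaCGCTttcat
Neat1 2742 nt, chr19:5842723-5842752 (minus strand): atgagatcattgtgaTGCTtgtagaaacct

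Of these 11 sites, 9 hold a YGCY tetramer, 6 of 8 in Malat1 and 3 of 3 in Neat1. Of all 30-base windows of the RNA, 19.8% hold one in Malat1 and 31.8% in Neat1. The third Malat1 site in this order holds 3 tetramers, the most of any. The sites were picked by tag number and not by sequence, and a match describes the letters under the tags only.

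For the RNAs without such a site, the position with the most tags is printed for context, chosen after the values were seen. The window in Meg3 had 2 WT and 5 *Mbnl1* KO tags, that in Rian 0 and 7, that in Mirg 1 and 3, and that in H19 1 and 4.
Meg3 3214 nt, chr12:110782409-110782438 (plus strand): gcccttgaccttTGCTcTGCTtgtgtcttg
Rian 45274 nt, chr12:110887413-110887442 (plus strand): ccccctaataagcTGCTtcagattgtaata
Mirg 2420 nt, chr12:110975595-110975624 (plus strand): attgggcactggtgacttTGCCagatgata
H19 1707 nt, chr7:149762328-149762357 (minus strand): tctctggatcctcctccccctaccttgaac

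These windows lie in exons of Meg3, Rian and H19 and in an intron of Mirg. Those in Meg3, Rian and Mirg hold a YGCY tetramer and that in H19 holds none. With so few tags they mark where Mbnl2 was seen most and carry no comparison.

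Mbnl2 tags over the 6 RNAs were more frequent in the *Mbnl1* KO table. Together they held 432 WT and 1258 *Mbnl1* KO tags, 0.126% and 0.264% of their tables, a ratio of 2.10 (1.88 to 2.35). Malat1 alone gave 84.5% of these WT tags and 78.9% of the *Mbnl1* KO tags. The ratio reached 2 at 4 of the 6 RNAs (Neat1, Meg3, Rian and H19), and at 3 of the 4 that had at least 20 pooled tags, beside 42.3% of the 4109 genes with that many tags. Meg3 and Rian had that many only through the *Mbnl1* KO table. The ratio was above 1 at 5 of the 6, all but Mirg, beside 79.5% of those genes, and its interval lay above 1 at 4 (Malat1, Neat1, Meg3 and Rian), beside 39.3%. No RNA had a ratio of 0.5 or less, beside 4.02% of those genes, or an interval below 1, beside 3.89%. The median gene had a ratio of 1.75, so most genes lay on the same side of 1.

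Leaving low-complexity tags out of the counts and totals gave 1.44 (1.29 to 1.62) over the 6 RNAs. It then reached 2 at 2 RNAs, Neat1 and Rian, beside 30.4% of 3479 genes, and the interval lay above 1 at 3, Malat1, Neat1 and Rian, beside 27.8% of those genes. The ratio was above 1 at 5 RNAs, beside 75.9%, and at most 0.5 at 0, beside 2.79%, with 0 intervals below 1, beside 1.95%. The median gene was then at 1.51. Without WT pass 3 and *Mbnl1* KO pass 1 the 6 RNAs together had a ratio of 2.54 (2.19 to 2.96). With *Mbnl1* KO passes 4, 5 and 6 left out it was 1.68 (1.47 to 1.92), and 2 RNAs, Neat1 and H19, reached 2. Leaving out both low-complexity and 1-read tags gave 1.03, with an interval that includes 1 and 1 RNA reaching 2, and setting the median protein-coding gene to 1 gave 1.20 (1.08 to 1.34), also with 1 RNA reaching 2.

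**Figure D1:**
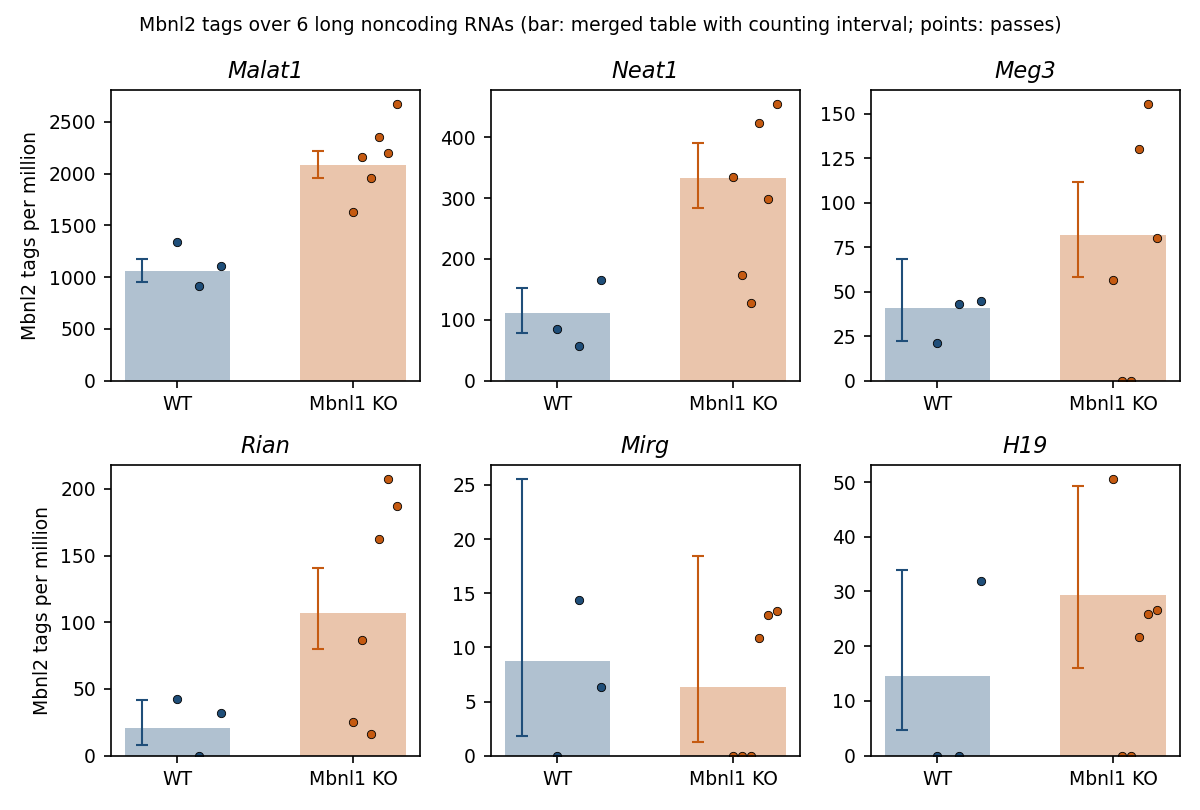
Scaled Mbnl2 tags (per 1000000 tags of the table) for each of the 6 RNAs in WT and *Mbnl1* KO quadriceps. Bars give the merged table with its 95% counting interval and points give the passes of each table, which are not replicates. Malat1 is the RNA whose 3 WT points, 917 to 1340, all lie under its 6 *Mbnl1* KO points, 1629 to 2671.

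Malat1 (ENSMUSG00000092341.1, chr19:5795690-5802671, minus strand) is annotated as exon over its whole 6982 nt. It had 365 WT and 992 *Mbnl1* KO tags, or 1062 (956 to 1177) and 2082 (1954 to 2215) scaled tags. Among genes outside chromosome M it ranked 2 by tag number in both tables. Only Ttn, the gene of the giant sarcomere protein titin, had more. The ratio at Malat1 was 1.96 (1.74 to 2.22), and 56.5% of the genes with at least 20 tags had a lower ratio, so Malat1 stood near the middle of the genes. The ratio was 2.25 (1.92 to 2.66) without WT pass 3 and *Mbnl1* KO pass 1.

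By pass, Malat1 held 917, 1109 and 1340 WT scaled tags from the lowest to the highest, and 1629, 2182 and 2671 as the lowest, median and highest of the 6 *Mbnl1* KO passes. These ranges did not overlap. They did once low-complexity tags were left out, from 1747 to 2420 in WT and from 1824 to 3925 in *Mbnl1* KO. Malat1 itself had 0 low-complexity tags in WT and 3 in *Mbnl1* KO, so leaving them out acted through the totals, and its ratio was then 1.33 (1.18 to 1.51). Tags of at least 2 reads gave 1.13 (0.971 to 1.31) and both limits together 0.944 (0.813 to 1.10), and with every tag kept, setting the median protein-coding gene to 1 gave 1.12 (0.995 to 1.27). Tags of at least 25 nt went the other way, with 3.23 (2.73 to 3.85). Whether Malat1 stood higher in *Mbnl1* KO depended on the scaling and on whether low-complexity and 1-read tags were kept. With *Mbnl1* KO passes 4, 5 and 6 left out, the ratio was 1.64 (1.42 to 1.90). The opposite strand of Malat1 carried 0 tags in both tables.

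**Figure D2:**
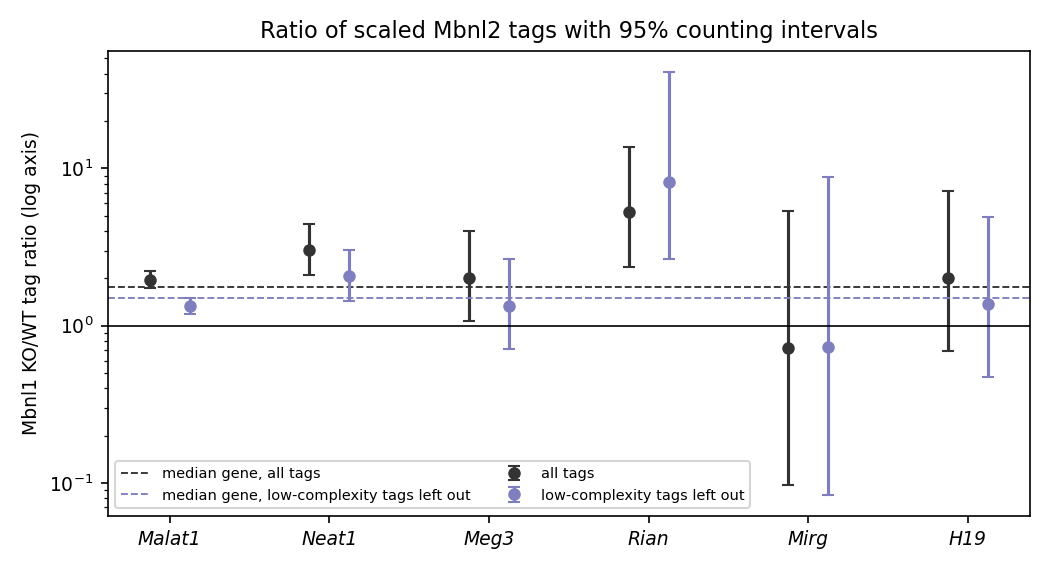
*Mbnl1* KO/WT ratio of scaled Mbnl2 tags at each RNA on a log axis, with 95% counting intervals, for all tags and with low-complexity tags left out. Dashed lines mark the median gene, 1.75 and 1.51, and the solid line marks 1. Rian lies above both medians and the interval of Mirg spans 1.

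Along Malat1, tags were spread over most of the RNA, with a peak past its middle that stood in both tables. In windows of 200 nt, 32 of 35 windows had a tag in each table, and the ratio was above 1 in 29 of them. The interval lay above 1 in 15 windows and below 1 in 0. The window from 4801 to 5000 nt held the most tags in both, 70 in WT and 137 in *Mbnl1* KO, followed by the next one, 5001 to 5200 nt, with 41 and 90. The segment from 4001 to 5000 nt held 33.4% of the WT and 32.9% of the *Mbnl1* KO tags of Malat1, so this share was alike within counting error.

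**Figure D3:**
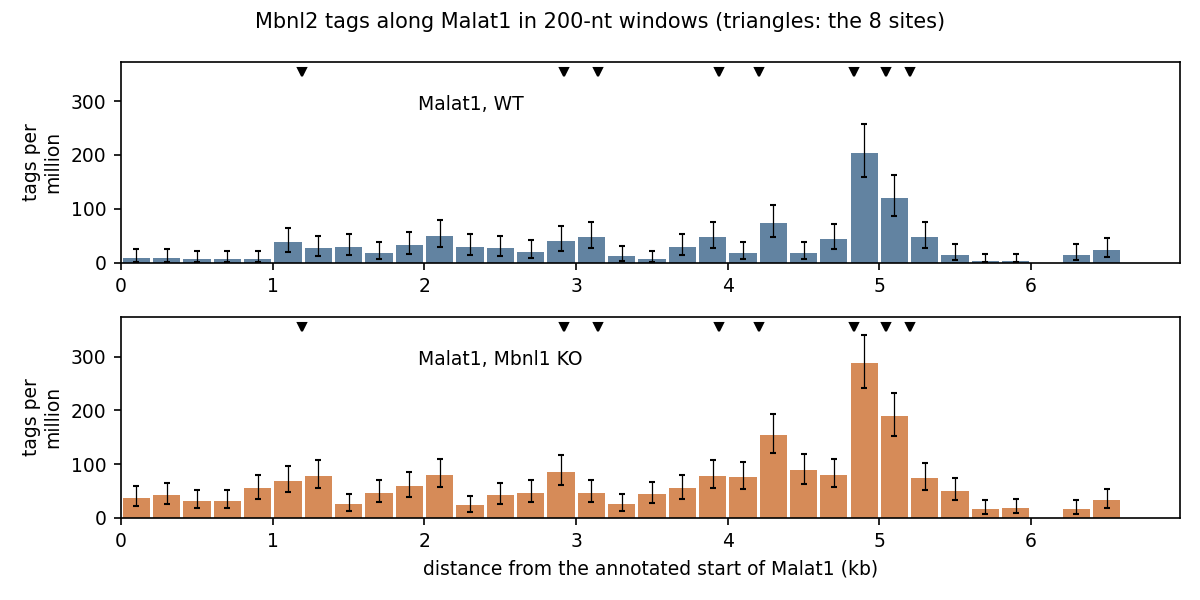
Scaled Mbnl2 tags in 200-nt windows from the annotated start of Malat1, WT above and *Mbnl1* KO below, with 95% counting intervals and triangles at the 8 sites. Both profiles peak between 4801 and 5000 nt, and the first 1000 nt are low in WT (12 tags) and higher in *Mbnl1* KO (94 tags).

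The start of Malat1 stood out in the windows, and it is given as a description, since the segment was singled out after they were seen. The first 1000 nt had 12 WT and 94 *Mbnl1* KO tags, with a ratio of 5.65 (3.09 to 11.3). They held 3.29% (1.71 to 5.67) of the WT tags of Malat1 and 9.48% (7.73 to 11.5) of the *Mbnl1* KO tags. The rest of the RNA had 353 and 898 tags and a ratio of 1.83 (1.62 to 2.08). Of the 94 *Mbnl1* KO tags at the start, 57 came from passes 4, 5 and 6. Between 1001 and 6000 nt the 1000-nt segments had ratios from 1.67 to 1.94, and the last one, from 6001 to 6982 nt, had 13 and 24 tags (1.33, 0.651 to 2.85).

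All 5 windows of this first segment had more scaled tags in *Mbnl1* KO, with 2 or 3 WT tags each against 15 to 26. By pass, the share of Malat1 tags in the first 1000 nt ran from 2.87% to 3.91% in WT and from 4.00% to 18.0% in *Mbnl1* KO. The lowest *Mbnl1* KO share rested on 1 of 25 tags and the highest on 22 of 122. Counted by distinct positions, the segment had 10 WT and 68 *Mbnl1* KO positions (ratio 5.30, 2.71 to 11.5). The ratio was 6.70 (3.11 to 17.2) without WT pass 3 and *Mbnl1* KO pass 1, 3.85 (2.11 to 7.72) with low-complexity tags left out and 3.08 (1.48 to 7.43) with tags of at least 2 reads. Under these settings the rest of the RNA had 1.64, 2.08, 1.25 and 1.06.

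The 8 Malat1 sites printed above held 35.1% (30.2 to 40.2) of the WT tags and 28.5% (25.7 to 31.4) of the *Mbnl1* KO tags of the RNA. Of these, 4 lie after 4000 nt, where both profiles are highest. The site at 4835 nt, which holds CGCT and TGCC side by side, had the most tags, 44 in WT and 92 in *Mbnl1* KO (ratio 1.51, 1.04 to 2.21). The site at 4210 nt had 19 and 60 (2.28, 1.34 to 4.04). The site at 2920 nt had 4 and 23, with the highest ratio of the 8, 4.15 (1.42 to 16.5). It was covered deeply enough to be taken only through the *Mbnl1* KO table, a choice that favours a high ratio. Its ratio is therefore a description.

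The sites at 4835, 4210 and 2920 nt had an interval above 1, and 7 of the 8 a ratio above 1. For the site at 2920 nt the interval carries the limit just given. The site at 5044 nt, with 20 and 34 tags, had 1.23 (0.686 to 2.25), and the site at 5206 nt, with 13 and 30, had 1.66 (0.842 to 3.47). At 1191 nt there were 10 and 22 tags (1.59, 0.721 to 3.75). The sites at 3942 and 3145 nt hold no YGCY tetramer and had the lowest ratios, 1.04 (0.412 to 2.76) from 9 and 13 tags and 0.721 (0.254 to 2.05) from 9 tags in each table. Once low-complexity tags were left out, 5 of the 8 had a ratio above 1 and 0 an interval above 1. Each site had tags in at least 2 of the 3 WT passes and at least 5 of the 6 *Mbnl1* KO passes.

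Neat1 (ENSMUSG00000092274.1, chr19:5824708-5845478, minus strand) lies upstream of Malat1 on the same strand and is annotated as an RNA of 20771 nt. It had 38 WT and 159 *Mbnl1* KO tags, 111 (78.3 to 152) and 334 (284 to 390) scaled tags, with a ratio of 3.02 (2.11 to 4.42). Of the genes with at least 20 tags, 79.5% had a lower ratio. Its rank among genes outside chromosome M was 254 in WT and 82 in *Mbnl1* KO. All of its tags were exonic, none was low-complexity, and the opposite strand had 0 tags.

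The WT passes of Neat1 held 57.3, 85.1 and 166 scaled tags from lowest to highest, and the *Mbnl1* KO passes 128, 316 and 454 as the lowest, median and highest. The ranges overlapped, since the highest WT pass, pass 3 with 26 of the 38 WT tags, lay above the lowest *Mbnl1* KO pass. Without WT pass 3 the ratio was 5.19 (2.89 to 10.3), and without it and *Mbnl1* KO pass 1 it was 5.18 (2.85 to 10.3). It was 2.06 (1.44 to 3.02) without low-complexity tags, still with an interval above 1.

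Neat1 has a short isoform that ends early and a long isoform that reads through and builds the paraspeckle. The first 3172 nt, which both isoforms share, had 18 WT and 59 *Mbnl1* KO tags (ratio 2.36, 1.37 to 4.26). The 17599 nt found only in the long isoform had 20 and 100 (3.60, 2.21 to 6.15). The intervals overlap, so the parts were not told apart. Per length the shared part carried more tags in both tables, 16.5 against 3.31 scaled tags per kb in WT and 39.0 against 11.9 in *Mbnl1* KO.

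**Figure D4:**
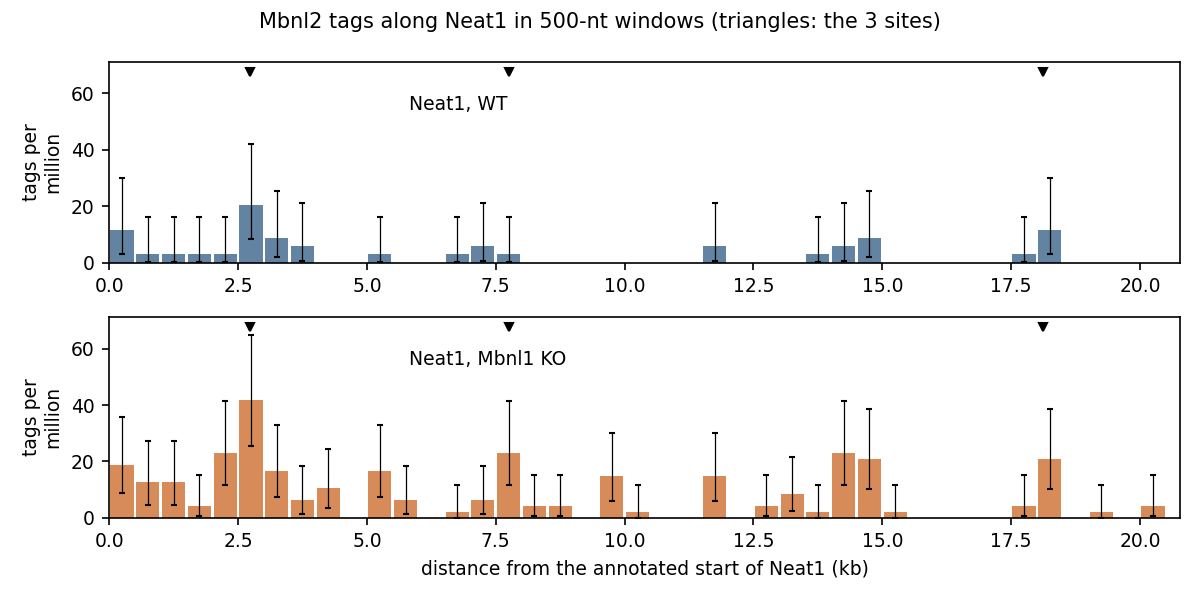
Scaled Mbnl2 tags in 500-nt windows from the annotated start of Neat1, WT above and *Mbnl1* KO below, with 95% counting intervals and triangles at the 3 sites. Windows with tags number 18 of 42 in WT and 29 of 42 in *Mbnl1* KO, and the window from 2501 to 3000 nt is highest in both, with 7 and 20 tags.

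In 500-nt windows, 18 of 42 windows of Neat1 had a WT tag and 29 an *Mbnl1* KO tag. The most tags lay between 2501 and 3000 nt, 7 in WT and 20 in *Mbnl1* KO. The sites printed above had 3 and 9 tags at 18123 nt (ratio 2.16, 0.540 to 12.4), 1 and 10 at 7758 nt (7.21, 1.03 to 313) and 1 and 11 at 2742 nt (7.93, 1.15 to 341). The site at 2742 nt lies in the part shared by both isoforms and the other sites in the long isoform. With low-complexity tags left out, 0 of the 3 sites had an interval above 1. Each rests on at most 3 WT tags and reached 10 pooled tags only through the *Mbnl1* KO table, a choice that favours a high ratio, so these ratios are a description.

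The 3 RNAs of the Dlk1-Dio3 region had fewer tags, and the intervals of their ratios overlapped. Meg3 (ENSMUSG00000021268.10, chr12:110779211-110809936, plus strand) had 14 WT and 39 *Mbnl1* KO tags, 40.8 (22.3 to 68.4) and 81.8 (58.2 to 112) scaled tags, with a ratio of 2.01 (1.07 to 4.00). Its WT passes ran from 21.3 to 44.6 scaled tags and its *Mbnl1* KO passes from 0 to 155, so the ranges overlapped. Leaving out 1 pass at a time gave ratios from 1.66 to 2.31, and the interval stayed above 1 in 4 of 9 such cases. Leaving out WT pass 3 and *Mbnl1* KO pass 1 together gave 2.51 (1.08 to 6.78). The ratio was 1.34 (0.707 to 2.67) without low-complexity tags, and with tags of at least 2 reads it was 0.830 (0.361 to 2.07), on the other side of 1. It was 1.15 (0.611 to 2.29) with the median protein-coding gene set to 1, and 0.951 (0.363 to 2.36) with *Mbnl1* KO passes 4, 5 and 6 left out. Tags of at least 25 nt went the other way, with 8.59 (2.11 to 75.3) from 2 WT and 22 *Mbnl1* KO tags.

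Within Meg3, exons held 8 WT and 30 *Mbnl1* KO tags (2.70, 1.21 to 6.82) and introns 6 and 9 (1.08, 0.344 to 3.69). Without low-complexity tags the exons had 1.78 (0.795 to 4.51). In 500-nt windows, all 14 WT tags lay between 3001 and 8000 nt, and the *Mbnl1* KO tags were most frequent there too. The last exon block, chr12:110796850-110809936, had 0 WT and 9 *Mbnl1* KO tags, and 0 WT tags allow up to 10.7 scaled tags (exact 95% limit). Over the microRNA Mir1906-1 inside Meg3 there were 2 WT and 0 *Mbnl1* KO tags. The opposite strand of Meg3 had 2 and 3 tags.

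Rian (ENSMUSG00000091793.1, chr12:110842155-110899919, plus strand), a host of box C/D small nucleolar RNAs, had the highest ratio of the 6 when all tags were counted, and its interval overlapped that of Neat1. It had 7 WT and 51 *Mbnl1* KO tags, 20.4 (8.19 to 42.0) and 107 (79.7 to 141) scaled tags, with a ratio of 5.25 (2.37 to 13.7). Of the genes with at least 20 tags, 94.5% had a lower ratio. Without low-complexity tags, 3 WT and 50 *Mbnl1* KO tags remained and the ratio was 8.20 (2.65 to 41.1), above 98.6% of the genes. Counting tags from 25 nt upward, Rian had 5.78 (2.27 to 18.8), below Meg3 (8.59) and Neat1 (6.74).

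The passes of Rian split within the *Mbnl1* KO table. The WT passes held 0, 31.9 and 42.5 scaled tags. *Mbnl1* KO passes 1, 2 and 3 held 25.3, 86.5 and 16.0, from 4, 1 and 1 tags, and passes 4, 5 and 6 held 163, 207 and 187, from 15, 16 and 14 tags. *Mbnl1* KO passes 1 and 3 fell inside the WT range, and pass 2, on 1 tag, and passes 4, 5 and 6 lay above it. Passes 4, 5 and 6 share many positions with each other as stated above, and they hold 45 of the 51 *Mbnl1* KO tags. With all 3 left out, 7 WT and 6 *Mbnl1* KO tags remained and the ratio was 1.27 (0.352 to 4.41), so the higher level at Rian rests on these passes. The 51 *Mbnl1* KO tags lay at 31 distinct positions, and counting positions gave a ratio of 4.03 (1.66 to 11.8). Leaving out 1 pass at a time gave ratios from 3.12 (1.41 to 8.15) without WT pass 2, which had 0 tags on Rian, to 9.98 (2.63 to 84.7) without WT pass 3. Without WT pass 3 and *Mbnl1* KO pass 1 the ratio was 13.8 (3.61 to 117).

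The *Mbnl1* KO tags of Rian lay mostly in exons, while its few WT tags do not fix a share. Exons, 8197 of the 57765 nt of the gene, held 1 WT and 40 *Mbnl1* KO tags (28.8, 4.89 to 1167), or 14.3% (0.361 to 57.9) and 78.4% (64.7 to 88.7) of the tags. Introns held 6 and 11 (1.32, 0.448 to 4.35). Without low-complexity tags 1 of 3 WT tags was exonic and the introns had a ratio of 2.46 (0.524 to 23.1), and with tags of at least 2 reads the only WT tag was exonic and the introns had 0 and 7 tags. Of the 40 exonic *Mbnl1* KO tags, 37 came from passes 4, 5 and 6, and they lay at 21 distinct positions. The ratio in exons was 16.4 (2.63 to 677) by distinct positions, 19.7 (3.33 to 796) with low-complexity tags left out and 11.2 (1.86 to 457) with tags of at least 2 reads. Without WT pass 3 and *Mbnl1* KO pass 1, exons had 0 WT and 38 *Mbnl1* KO tags.

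A pair of exon blocks near the end of Rian carried these tags. The block chr12:110886734-110889309 had 1 WT and 23 *Mbnl1* KO tags, in 5 of 6 passes, and the last block, chr12:110898956-110899919, had 0 and 14, in 3 passes. Over the annotated small RNAs inside Rian, 1333 nt in all, there were 0 tags in both tables. The opposite strand of Rian had 6 WT and 5 *Mbnl1* KO tags, of which 6 and 2 were low-complexity, and 4 of the 7 WT tags on the Rian strand were low-complexity too. The WT level on the Rian strand was therefore close to the level on the strand with no Rian RNA.

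**Figure D5:**
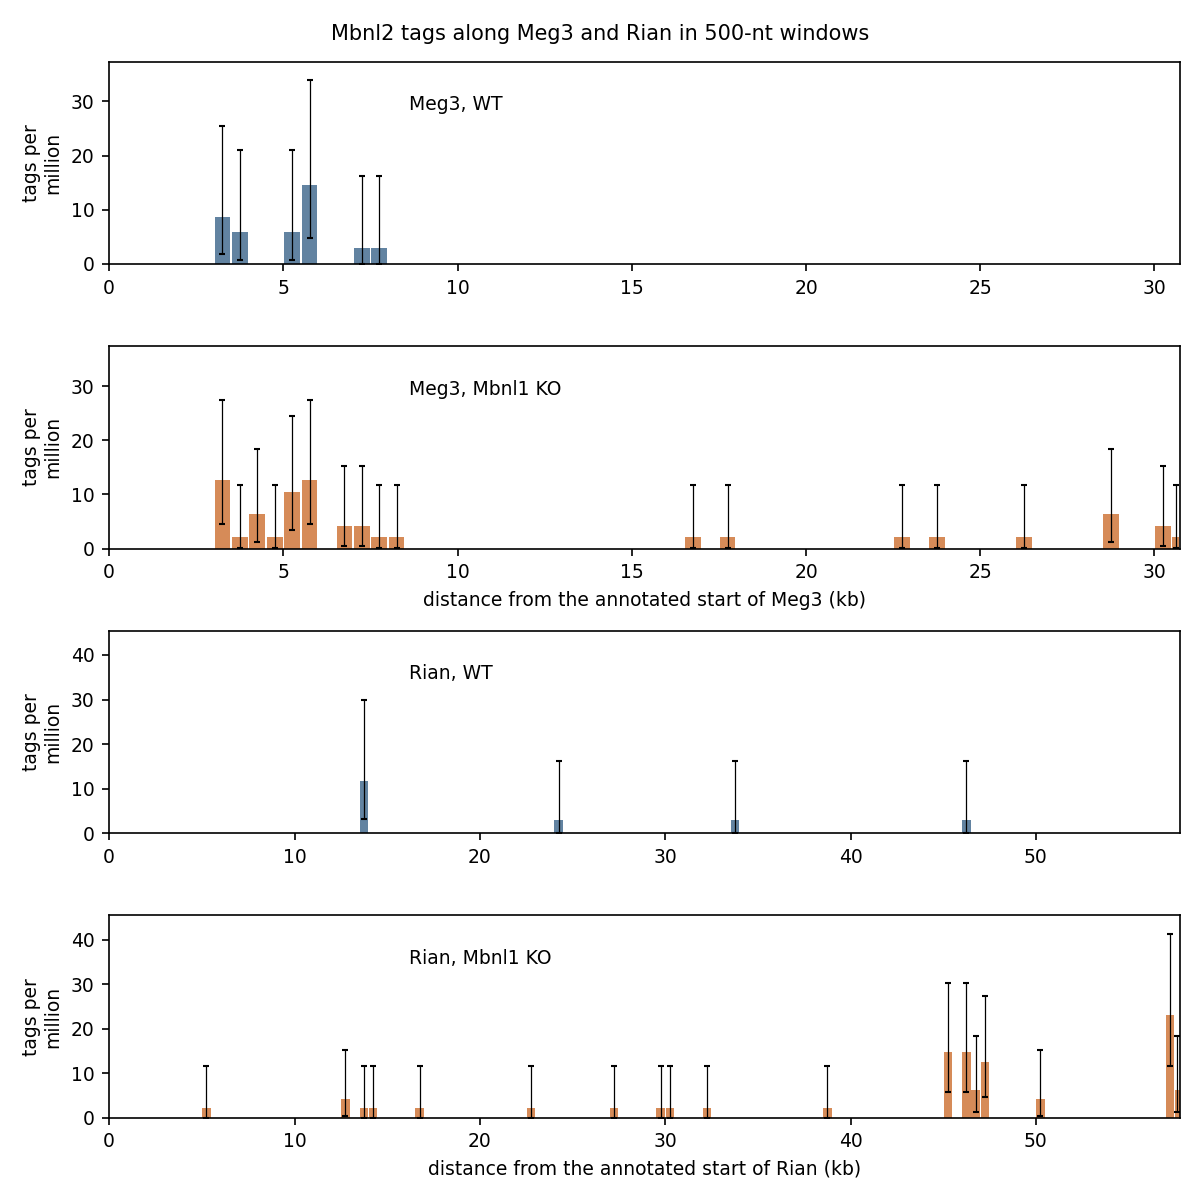
Scaled Mbnl2 tags in 500-nt windows from the annotated starts of Meg3 and Rian, WT above and *Mbnl1* KO below, with 95% counting intervals. Meg3 tags gather between 3001 and 8000 nt in both tables, and Rian tags after 40000 nt number 1 in WT and 39 in *Mbnl1* KO.

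Mirg (ENSMUSG00000091158.1, chr12:110973191-110987665, plus strand), a host of microRNAs, had 3 tags in each table, 8.73 (1.80 to 25.5) and 6.30 (1.30 to 18.4) scaled tags, with a ratio of 0.721 (0.0966 to 5.38). All 6 tags were intronic, and exons had 0 in both tables. The 3 *Mbnl1* KO tags were 1 position in passes 4, 5 and 6, supported by 7117 reads. A WT tag lay at that position as well. The ratio was 0.880 (0.101 to 10.5) without WT pass 3 and *Mbnl1* KO pass 1. The opposite strand had 19 WT and 9 *Mbnl1* KO tags, all of them low-complexity, which is more than on the Mirg strand. Without such tags, 2 WT and 3 *Mbnl1* KO tags remained on Mirg and 0 on the opposite strand, too few for a comparison.

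H19 (ENSMUSG00000000031.9, chr7:149761434-149764048, minus strand) had 5 WT and 14 *Mbnl1* KO tags, 14.6 (4.73 to 34.0) and 29.4 (16.1 to 49.3) scaled tags, with a ratio of 2.02 (0.687 to 7.16). All 5 WT tags came from WT pass 3, and 8 of the 14 *Mbnl1* KO tags from *Mbnl1* KO pass 1. Of the 5 WT positions, 4 were also listed in the *Mbnl1* KO table, so this ratio rests largely on the pair of passes that share positions. Leaving out *Mbnl1* KO pass 1 gave 1.30 (0.330 to 5.37) and leaving out WT pass 2, which had 0 tags on H19, gave 1.20 (0.408 to 4.25). The other WT passes together had 0 tags, so leaving out the pair gives no ratio. All tags were exonic and the hosted microRNA Mir675 had 0. The interval at H19 spans 1.

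Per length of exon, Malat1 stood far above the other RNAs in both tables. In scaled tags per kb, Malat1 had 152 (137 to 169) in WT and 298 (280 to 317) in *Mbnl1* KO. H19 had 6.14 (1.99 to 14.3) and 12.4 (6.77 to 20.8), Neat1 5.33 (3.77 to 7.31) and 16.1 (13.7 to 18.8), Meg3 1.29 (0.556 to 2.54) and 3.48 (2.35 to 4.97), and Rian 0.355 (0.00899 to 1.98) and 10.2 (7.32 to 13.9). Mirg had 0 exonic tags in both. In WT the interval of H19 overlapped those of Neat1 and Meg3, and that of Meg3 overlapped that of Rian. In *Mbnl1* KO the intervals of Neat1, H19 and Rian all overlapped each other and lay above that of Meg3.

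The YGCY motif lay under Mbnl2 tags more often than elsewhere in Malat1 and, in the *Mbnl1* KO table, in Neat1. In 30-base windows centred on the tags, low-complexity tags left out, 47.9% (42.7 to 53.2) of the WT and 40.2% (37.2 to 43.4) of the *Mbnl1* KO windows of Malat1 held one, against 19.8% of all windows of the RNA. In Neat1 the shares were 50.0% (33.4 to 66.6) and 59.7% (51.7 to 67.4), against 31.8%. The lower WT limit, from 38 tags, lies close to the share in the RNA, so a higher WT share is not secure. On Meg3 it was 4 of 14 WT tags, 28.6% (8.39 to 58.1), and 52.6% (35.8 to 69.0) of the *Mbnl1* KO tags, against 29.8% of its windows, so the WT share did not stand above the RNA. On Rian it was 1 of 3 WT tags and 40.0% (26.4 to 54.8) of the *Mbnl1* KO tags, against 22.0%. In H19 it was 2 of 5 WT tags and 3 of 14 *Mbnl1* KO tags, 21.4% (4.66 to 50.8), against 29.6%. Tags of 1 RNA overlap and repeat across passes, so these intervals are too narrow.

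All tetramers found in at least 5% of the windows of an RNA were ranked by their share under tags over their share in the RNA. In Malat1, 194 tetramers qualified. TGCT ranked 1 in *Mbnl1* KO, at 30.2% under tags and 11.5% in the RNA, and ranked 2 in WT, at 38.4%, after CTGC, which overlaps it. In Neat1, of 207 tetramers, GCTT ranked 1 in *Mbnl1* KO and TGCT ranked 4, at 41.5% under tags and 17.7% in the RNA. In WT, with 38 tags on Neat1, TGCT ranked 21.

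RNase A cuts after pyrimidines, and tags began after a pyrimidine more often than the make-up of the RNA gives. On Malat1, 57.5% of WT and 67.6% of *Mbnl1* KO tags began after a C or T, against 46.0% of the bases of the RNA. On Neat1 these shares were 63.2% and 77.4%, against 52.2%. The part of the enzyme in the motif shares was not tested.

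Exact positions recurred between the tables. In Malat1, 112 positions were listed in both, 37.8% of the 296 WT positions and 16.7% of the 670 *Mbnl1* KO positions, and in Neat1 17, which is 51.5% of the WT and 15.5% of the *Mbnl1* KO positions. Over the whole tables these shares were 12.3% and 9.62%. The recurrence includes the pair of passes described above.

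Genes around these RNAs were counted from lists of known partners and neighbours. The paraspeckle protein genes encode RNA-binding proteins that assemble on Neat1. Of 12 such genes, 6 had at least 20 tags, 5 of these had a ratio of at least 2, and their median was 3.33. No gene of the 12 had more than 8 WT tags. All 6 therefore reached 20 pooled tags only through the *Mbnl1* KO table, which favours a high ratio, so their values are a description. Without low-complexity tags 3 genes reached 2, beside 30.4% of all genes tested, and the median was 2.19. Sfpq, a core paraspeckle protein, had 3 WT and 33 *Mbnl1* KO tags (7.93, 2.49 to 40.4), and Hnrnpk had 2 and 20 (7.21, 1.75 to 63.6). Taf15, the exception, had 7 and 14 (1.44, 0.545 to 4.22). The share of genes reaching 2 was 42.3%, as given above.

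Of 6 imprinted neighbours, Igf2 and Nctc1 had at least 20 tags. Igf2, the growth factor gene next to H19, had 2 WT and 22 *Mbnl1* KO tags (7.93, 1.95 to 69.6), and Nctc1, a noncoding RNA of the same region, had 5 and 22 (3.17, 1.17 to 10.7). Dlk1, Rtl1, Begain and Dio3 had 0 to 5 tags in either table. Igf2 and Nctc1 reached 20 pooled tags only through the *Mbnl1* KO table, which favours a high ratio, so their values are a description. With low-complexity tags left out, Nctc1 had 2.71 (0.919 to 10.8), an interval that spans 1.

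Of 13 other long noncoding RNAs, 11 were annotated and 7 had at least 20 tags. Of these 4 reached a ratio of 2, beside 42.3% of all genes tested, and the median of the 7 was 2.45. Tug1, Gas5, Snhg1 and Dleu2 reached 20 pooled tags only through the *Mbnl1* KO table, which favours a high ratio. The count and the median are therefore a description. With low-complexity tags left out, 3 reached it, beside 30.4%, and the median was 1.72. The RNA 1700020I14Rik had 112 WT and 481 *Mbnl1* KO tags (3.10, 2.52 to 3.84), and Tug1, a widely expressed nuclear and cytoplasmic RNA, had 2 and 35 (12.6, 3.24 to 108), and so reached 20 tags only through the *Mbnl1* KO table. Pvt1 had 30 and 33 (0.793, 0.469 to 1.35) and Airn, an imprinted antisense RNA, 22 and 32 (1.05, 0.591 to 1.89). Over all 75 annotated lincRNA genes with at least 20 tags the median was 0.937, and it was 1.33 over 42 with low-complexity tags left out. Malat1, Neat1 and H19 are annotated as processed transcripts, and over the 44 such genes the median was 1.24, or 1.33 over 29 with low-complexity tags left out.

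Mbnl2 tags lay on marker genes of fast muscle and of other cells. They do not show which cells the tags of the 6 RNAs came from. Markers of fast skeletal muscle had 464 WT and 1583 *Mbnl1* KO tags over 7 of 7 genes (6 to 117 and 47 to 393 per gene), and fibroblast markers 200 and 884 over 5 of 5 (6 to 123 and 15 to 471). Endothelial markers had 42 and 106, slow muscle markers 5 and 18, adipocyte markers 5 and 35, and blood and immune markers 14 and 11. Myl2, Cd68 and Plin1 were at 0 in WT and Tnnt1 at 0 in *Mbnl1* KO. Fibroblast markers had a median ratio of 3.62 and fast muscle markers one of 2.46, and the part of cell composition in the ratios of the 6 RNAs was not tested.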

How the data were processed

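Mbnl2 HITS-CLIP tags from quadriceps were analysed in 3 WT and 3 *Mbnl1* KO mice. The authors removed low-quality reads, aligned the rest to mm9 with BWA (version not given in the sources used here), dropped short sequences and potential PCR duplicates, and merged the mice into 1 table per genotype, in which RNase conditions are not told apart. The deposited count of each row is the number of reads collapsed into a tag, not normalized.

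Tags were counted on the strand of each gene of the mm9 GENCODE annotation, by any overlap with the gene body, and divided by the 343554 WT or 476543 *Mbnl1* KO tags. Ratios carry exact 95% Clopper-Pearson intervals, and no p-value was computed. A fold of 2 counted as a call, over genes with at least 20 pooled tags, and so did *Mbnl1* KO tags over 0 WT tags. Sites were named by coverage, at most 8 in Malat1, 5 in Neat1 and 3 in each other RNA. The members and lists were chosen with earlier results of these data known. Python 3.11.15, numpy 2.4.6, pandas 2.3.3, scipy 1.17.1 and matplotlib 3.10.9 were used. The ratio and its interval, and not the counting of tags over genes, were tested on simulated independent counts. Tags that repeat across passes were not simulated. Alternatives changed the scaling, the tags kept, the collapsing of positions and the overlap rule. The result of 1 marker list is not reported here.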

Additional observations from a re-analysis of the deposited data

Results flagged for a closer look

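The stretch between Meg3 and Rian, chr12:110809937-110842154 on the plus strand, belongs to no gene compared above and carried Mbnl2 tags. It had 4 WT and 24 *Mbnl1* KO tags, with a ratio of 4.33 (1.49 to 17.2), and 5.66 (1.40 to 49.5) with low-complexity tags left out. Of its 13 annotated small RNAs, Mir337 had 1 WT and 4 *Mbnl1* KO tags and the others had 0 in both tables. The stretch was singled out because tags appeared outside the annotated RNAs and both intervals lay above 1. These intervals are therefore the rule of choice and not a separate result. Values by pass are not given for it.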

How the results depend on the processing

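No paired analysis was possible because the mice of each genotype are merged in 1 table. Without scaling, the ratio was 2.72 at Malat1 and 2.91 over the 6 RNAs. With the median protein-coding gene set to 1, it was 1.12 at Malat1, 1.73 at Neat1 and 1.20 over the 6, and 1 RNA reached 2. Leaving out low-complexity tags gave 1.33, 2.06 and 1.44, and 2 RNAs reached 2. Tags of at least 2 reads gave 1.13 at Malat1, 2.05 at Neat1, 0.830 at Meg3 (reversed), 13.8 at Rian and 1.23 over the 6, and 2 RNAs reached 2. Tags of at least 25 nt gave 3.23 at Malat1, 6.74 at Neat1, 8.59 at Meg3, 5.78 at Rian and 3.54 over the 6, and a WT share of 44.6% in the Malat1 sites. With equal 5′ ends collapsed, Malat1 had 1.70, the 6 RNAs 1.84 and the sites 29.7% of WT and 22.1% of *Mbnl1* KO tags. Counted by tag midpoint, the sites held 28.8% and 23.4%. Exons alone gave 28.8 at Rian.

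The following were chosen after the data were seen. Without WT pass 3 and *Mbnl1* KO pass 1, the ratio was 2.25 at Malat1, 5.18 at Neat1, 13.8 at Rian and 2.54 over the 6. With *Mbnl1* KO passes 4, 5 and 6 left out, it was 1.64 at Malat1, 0.951 at Meg3 (reversed), 1.27 at Rian (0.352 to 4.41), 0 at Mirg and 1.68 over the 6, and 2 RNAs reached 2. Leaving out low-complexity tags and 1-read tags gave 0.944 at Malat1 and 0.696 at Meg3 (both reversed), 1.72 at Neat1 and 1.03 over the 6, and 1 RNA reached 2. Leaving out 1 pass at a time gave 1.79 to 2.17 at Malat1, 2.27 to 5.19 at Neat1, 1.66 to 2.31 at Meg3, 3.12 to 9.98 at Rian, 0.570 to 1.28 at Mirg, 1.20 to 2.32 at H19 and 1.87 to 2.31 over the 6, with 3 to 5 RNAs reaching 2. The 5, without WT pass 3, counts H19, which then had 0 WT tags and no ratio, and 4 RNAs with a ratio reached 2. The Mirg ratio was above 1 in 2 of these 9 cases. Apart from the numbers of tags and reads a setting drops, the cause of these shifts was not tested.

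Neat1 had an interval above 1 in all 13 other settings and in all 9 that left out 1 pass. Rian had one in 12 of 13, all but that without *Mbnl1* KO passes 4, 5 and 6, and in all 9, of which none left out more than 1 of those 3. Meg3 had one in 8 of 13 and 4 of 9. Counting by tag midpoint, in exons only or without small RNAs kept the main 38 WT and 159 *Mbnl1* KO tags at Neat1. At Rian, counting by midpoint or without small RNAs kept the main 7 and 51, and at Meg3 counting by midpoint kept 14 and 39. In these cases the setting left the ratio as it was and is no separate check. Mirg in exons only, and H19 without WT pass 3 (alone or with *Mbnl1* KO pass 1), gave no ratio. Tag numbers limit Mirg and H19, at 6 and 19 pooled tags.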

Other observations

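Between Rian and Mirg, chr12:110899920-110973190 on the plus strand, there were 12 WT and 32 *Mbnl1* KO tags (1.92, 0.964 to 4.10). This stretch holds 34 annotated small RNAs, over which there were 0 WT and 1 *Mbnl1* KO tag, on Mir323. The 22036 nt between Neat1 and Malat1 had 0 tags in both tables on the strand of these RNAs, and the 10 kb after Malat1 had 0 WT and 2 *Mbnl1* KO tags. The 10 kb after H19 and after Mirg had 0 in both.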
